A study of Mus musculus with 4 samples.

Results

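The 10 genes described here belong to the Notch2 signaling pathway or mark the marginal zone B cell, and they were taken by symbol from a count table of 55401 mouse genes. They are the receptor Notch2, its nuclear partners Rbpj and Maml1, the Notch target genes Hes1 and Dtx1, and Cd1d1, S1pr3, Cd9, Myof and Plxnd1, which are known for higher expression in marginal zone than in follicular B cells. All 10 were found in the table and all 10 had enough reads to be tested. Expression was measured by RNA-seq in follicular B (FOB) cells sorted from the spleen of C57BL/6 mice aged 7 weeks as B220+CD93-CD23highCD21low cells, in 2 wild-type (WT) and 2 Hnrnpf bKO libraries. Both groups carried loxP-flanked Hnrnpf on both alleles. The WT group had no Cre, whereas the Hnrnpf bKO group carried 1 Cre allele that is active in B lineage cells. Loss of hnRNP F, an RNA-binding protein that acts in splicing, and the Cre allele came together in the same mice and cannot be told apart in this comparison. The sources used here do not say whether mice were pooled or whether each library came from a separate animal, so the p-values measure the spread between these libraries, which may be technical.

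Notch2 is a cell surface receptor. When it meets a Delta-like ligand on a neighboring stromal cell, it is cut by the protease ADAM10 and then by the gamma-secretase complex, and its intracellular domain moves to the nucleus, where it joins the DNA-binding protein RBPJ and a Mastermind-like coactivator and turns on targets such as Hes1 and Dtx1. In the mouse spleen, Notch2 signaling directs transitional B cells to the marginal zone fate, while follicular B cells form without it. The question for the present data was whether mRNA of the pathway and of the marginal zone genes differed in FOB cells of Hnrnpf bKO mice.

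Library depth ranged from 15698567 to 18908963 counts in genes, and 14123 genes were tested. In these libraries Hnrnpf had 5780 and 6634 counts in WT against 1167 and 1194 in Hnrnpf bKO, a change of -2.32 on the log2 scale (adjusted p = 1.05e-10 by the quasi-likelihood test of edgeR, Benjamini-Hochberg adjusted, as for all adjusted p-values below unless another tool is named), so the deletion was seen in both libraries that carry the label. Hnrnpf mRNA remained at 20.1% of its WT level, and how much of it came from cells that escaped deletion was not tested. The sorted cell type was checked against the genes of the gate. Fcer2a, which encodes CD23, was abundant in every library, with 20921 to 27472 counts, while Cr2, which encodes CD21, had 11268 to 17733 counts and Cd93 138 to 354 counts. Of these genes, Cd93 and Fcer2a were higher in Hnrnpf bKO, with log2 fold changes of 0.85 and 0.22, and Cr2 was lower, at -0.47. Ptprc, of whose product B220 is a form, had a log2 fold change of -0.12 and did not pass (adjusted p = 0.136). RNA of these bulk libraries cannot tell fewer cells of a type from less RNA per cell.

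The RefSeq promoter table (GRCm38.p6) held a window of 300 bases, from 250 before to 50 after the start site, for 8 of the 10 genes, all but Hes1 and Cd1d1, with 9 windows because Rbpj has a pair of start sites. The letters TGGGAA, the core of the element that RBPJ binds, were searched on both strands, and they occurred in 25.6% of the 32851 promoter windows of the table. They occurred in 4 windows of 3 of these genes, Rbpj, S1pr3 and Cd9, and not in those of Notch2, Dtx1, Maml1, Myof and Plxnd1. The Rbpj windows overlap, and the only match in the second window is also counted in the first. The longer GTGGGAA, which contains TGGGAA, occurred in 6.38% of the windows and, among these genes, in that of Cd9. The S1pr3 and Dtx1 windows are printed because both mRNAs were lower in Hnrnpf bKO cells, one with and the other without these letters. The S1pr3 window lies at chr13:51408368-51408667 on the plus strand, with TGGGAA in capitals from base 14 after the start site, and the Dtx1 window at chr5:120711620-120711919 on the minus strand. A match or its absence is a statement about these letters in this window alone.
S1pr3: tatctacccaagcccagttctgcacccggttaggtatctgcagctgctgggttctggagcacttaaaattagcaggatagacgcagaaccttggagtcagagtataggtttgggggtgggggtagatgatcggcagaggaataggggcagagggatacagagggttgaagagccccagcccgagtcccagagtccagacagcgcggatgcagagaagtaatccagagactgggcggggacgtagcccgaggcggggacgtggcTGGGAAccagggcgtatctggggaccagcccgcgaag
Dtx1: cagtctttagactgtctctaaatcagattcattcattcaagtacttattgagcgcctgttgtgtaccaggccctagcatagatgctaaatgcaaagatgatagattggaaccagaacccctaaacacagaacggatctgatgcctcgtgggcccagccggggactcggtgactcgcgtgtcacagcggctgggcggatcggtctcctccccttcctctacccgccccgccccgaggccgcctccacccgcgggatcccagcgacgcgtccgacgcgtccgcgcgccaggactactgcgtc

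Cd1d1 has a neighbor, Cd1d2, that is nearly the same in sequence, so their annotated coding bases were aligned to see how well reads could be assigned. These number 1011 for Cd1d1 and 1010 for Cd1d2, and whether Cd1d2 holds an intact reading frame was not tested. Over 1010 aligned coding bases of the GENCODE transcripts the genes differed at 32, an identity of 96.8%, and the longest stretch without a difference was 245 bases. Coding bases 400 to 459, counted from the start codon on GRCm38, which hold 8 of the differences, are printed with the differing bases in capitals.
Cd1d1: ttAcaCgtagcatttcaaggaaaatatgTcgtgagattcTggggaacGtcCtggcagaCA
Cd1d2: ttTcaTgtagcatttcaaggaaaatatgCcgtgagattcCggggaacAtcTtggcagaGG

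Among the 10 genes, 4 passed an adjusted p of at most 0.05, of which Hes1, Dtx1 and S1pr3 were lower and Cd1d1 was higher in Hnrnpf bKO FOB cells. Of all tested genes, 6.97% passed, 2.83% lower and 4.15% higher, and the share was 8.94% among genes whose mean reached 100 counts, as for all 10. None of the 10 also reached a 2-fold change with edgeR, a rule that 0.899% of the tested genes met. DESeq2 called 3 of the 10 and 617 genes in all. With edgeR 5 of the 10 had an unadjusted p under 0.05. The share of all genes under that value was not counted, so no contrast is drawn from it. The groups of libraries did not overlap for 6 of the 10, against 50.1% of all tested genes. The median log2 fold change was -0.05 for the 10 genes and -0.00 for all tested genes. The receptor and its nuclear partners did not pass the test, while both target genes were lower, and the 5 marginal zone genes went in different directions.

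**Figure D1:**
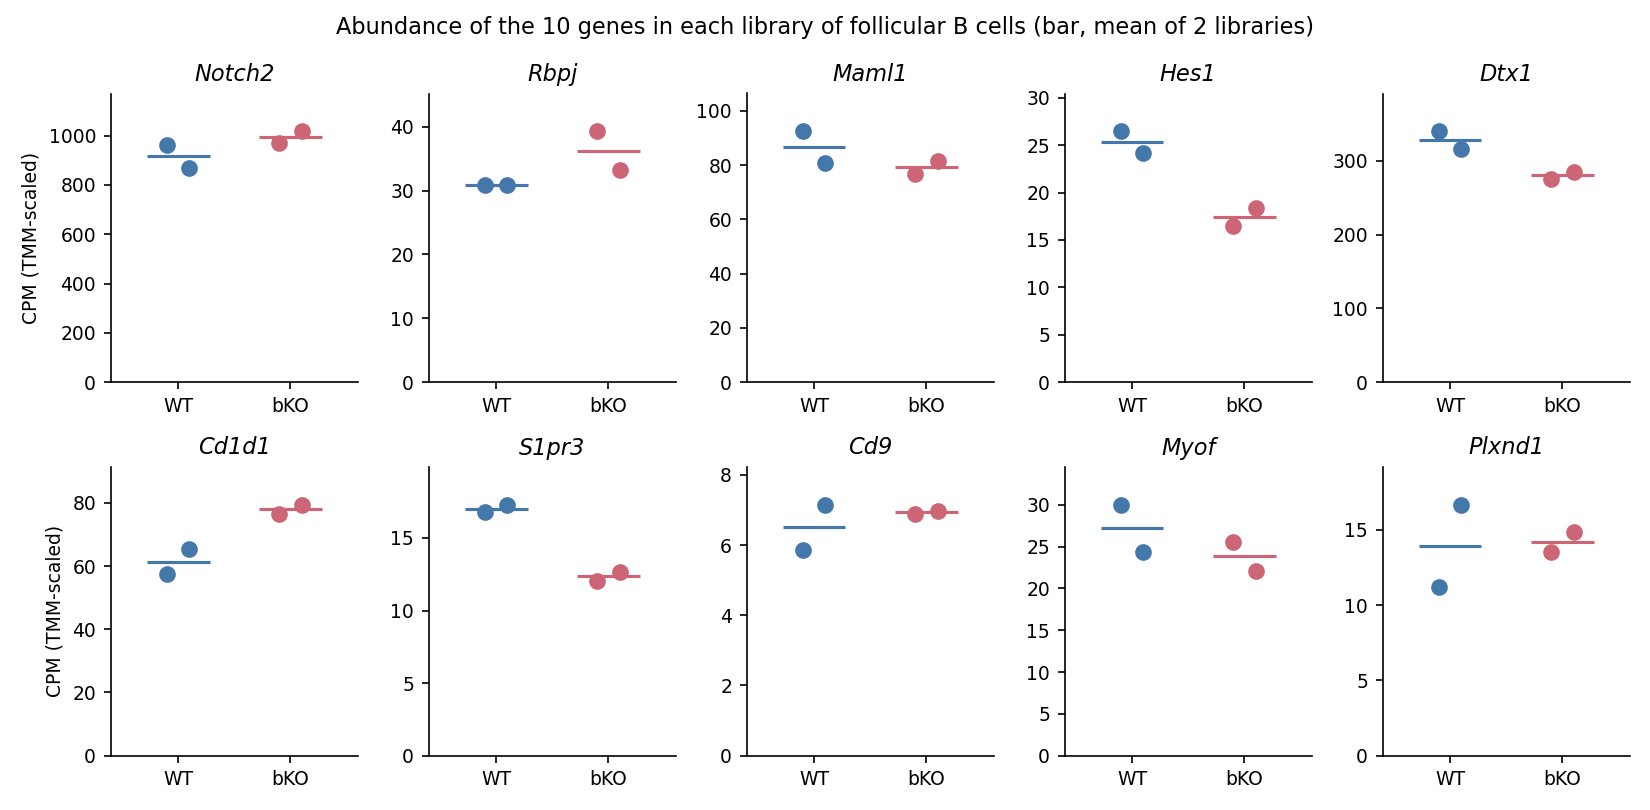
Abundance of each of the 10 genes in CPM, the counts scaled to TMM library size, in the 2 WT and 2 Hnrnpf bKO libraries, with 1 point per library, a bar at the mean of each group and a separate axis for each gene. The WT and Hnrnpf bKO points separate for Notch2, Dtx1, Rbpj, Hes1, Cd1d1 and S1pr3, and they overlap for Maml1, Cd9, Myof and Plxnd1.

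Notch2, the receptor, had 15755 and 16540 WT counts against 15214 and 18236 Hnrnpf bKO counts. After scaling for depth, this was 963 and 870 CPM in WT and 971 and 1018 CPM in Hnrnpf bKO, so both Hnrnpf bKO libraries were above both WT libraries, the first by a small margin. Mean levels were 916 ± 66.4 CPM in WT and 994 ± 33.6 CPM in Hnrnpf bKO (SD, n = 2 each), and the log2 fold change was 0.12 (SE 0.06, 95% interval -0.00 to 0.24, adjusted p = 0.253), so a rise above 17.9% or a fall above 0.102% lies outside the interval. Without the first WT library the log2 fold change was 0.19 and passed the test (adjusted p = 0.0328), while without the second WT library it was 0.05. A short noncoding gene inside Notch2 on the same strand, Gm42820, held 48 to 56 counts in every library, and reads that fall on both genes cannot be assigned to either with certainty.

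Rbpj, the DNA-binding subunit that the Notch intracellular domain joins, had 506 and 587 counts in WT against 616 and 594 in Hnrnpf bKO. Its levels were 30.9 CPM in both WT libraries and 39.3 and 33.2 CPM in the Hnrnpf bKO libraries, so the groups did not overlap. The log2 fold change of 0.23 (SE 0.10, 95% interval 0.02 to 0.44) did not pass the test over all genes (adjusted p = 0.204). A pseudogene, Rbpj-ps3, matched 99.7% of 1441 aligned bases of an Rbpj transcript and had 3 to 11 counts. Assignment between them is uncertain, and this low count does not show how many reads matched both.

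Maml1, a Mastermind-like coactivator of the complex, had 1513 and 1536 counts in WT against 1205 and 1458 in Hnrnpf bKO. The second Hnrnpf bKO library, at 81.4 CPM, lay above the second WT library, at 80.7 CPM, so the groups overlapped. The log2 fold change was -0.13 (SE 0.07, 95% interval -0.29 to 0.03, adjusted p = 0.371). Gm26542, which overlaps Maml1 on the opposite strand, had 7 to 20 counts, and since the strand setting of the counting is not given, reads of the overlap are uncertain.

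Hes1 encodes a transcriptional repressor that is a direct Notch target in many tissues, and it had the largest fitted change of the 10 genes. It had 433 and 460 WT counts against 259 and 329 Hnrnpf bKO counts, which is 26.5 and 24.2 CPM against 16.5 and 18.4 CPM. Both Hnrnpf bKO libraries were below both WT libraries, and the gap between the groups was wider than the spread within either. Hes1 fell to 69.0% of its WT level, with a log2 fold change of -0.53 (SE 0.11, 95% interval -0.77 to -0.30, adjusted p = 0.0103; DESeq2 adjusted p = 0.0420). The adjusted p was 0.0501 without the first WT library and 0.0525 without the first Hnrnpf bKO library, so the call was lost in both cases although the log2 fold change stayed at -0.47 and -0.46. Hes1 lies on chromosome 16 at 30064384 to 30067796 (GRCm38, plus strand).

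Dtx1 encodes Deltex1, an E3 ubiquitin ligase and a target of Notch2 in B cells. It had 5560 and 6000 counts in WT against 4316 and 5103 in Hnrnpf bKO, which is 340 and 315 CPM against 275 and 285 CPM. Both Hnrnpf bKO libraries were again lower than both WT libraries. Dtx1 fell by less than Hes1, to 85.5% of its WT level, with a log2 fold change of -0.23 (SE 0.05, 95% interval -0.34 to -0.11, adjusted p = 0.0229; DESeq2 adjusted p = 0.0168). It did not pass without the first WT library (-0.17, adjusted p = 0.152) or without the first Hnrnpf bKO library (-0.20, adjusted p = 0.127). The gene spans bases 120680202 to 120711927 of chromosome 5 on the minus strand.

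**Figure D2:**
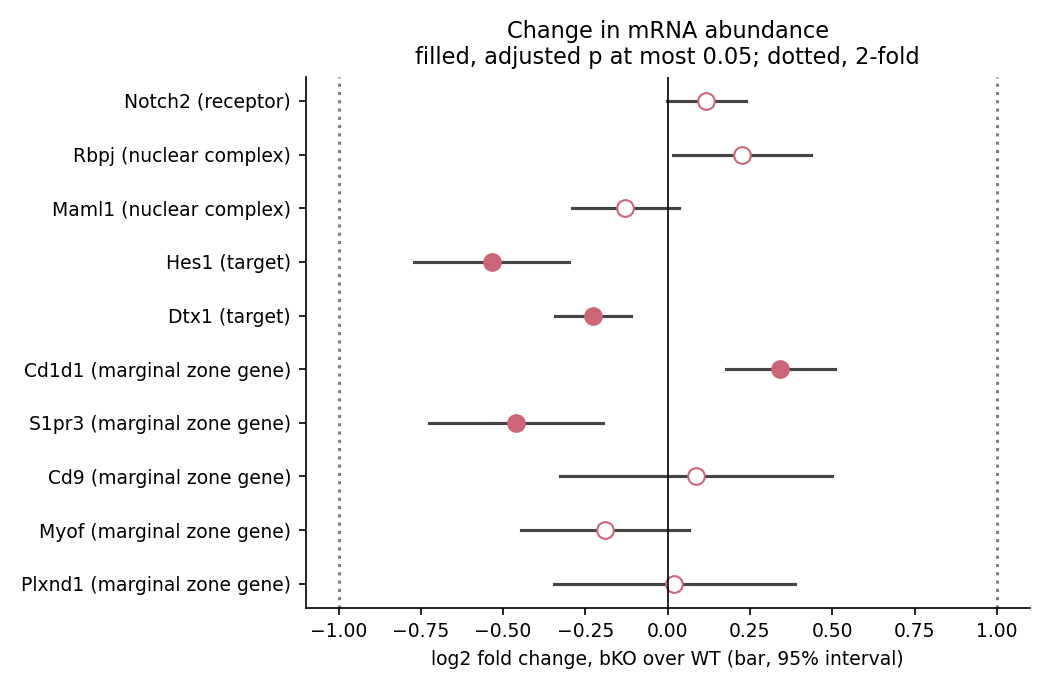
Change in mRNA abundance of the 10 genes as the log2 fold change of Hnrnpf bKO over WT, with the 95% interval as a bar, filled points for an adjusted p of at most 0.05 and dotted lines at 2-fold. Hes1, Dtx1 and S1pr3 lie below 0 and Cd1d1 above it, and no interval reaches the 2-fold lines.

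Of the 5 marginal zone genes, Cd1d1 rose and S1pr3 fell, and Cd9, Myof and Plxnd1 did not pass the test. Cd1d1 encodes CD1d, which presents lipid antigens to natural killer T cells and is abundant on marginal zone B cells. It had 941 and 1243 counts in WT against 1200 and 1423 in Hnrnpf bKO, which is 57.5 and 65.3 CPM against 76.6 and 79.4 CPM. The groups did not overlap, and the WT libraries were further apart than the Hnrnpf bKO libraries. Cd1d1 rose to 127% of its WT level, with a log2 fold change of 0.34 (SE 0.08, 95% interval 0.18 to 0.51, adjusted p = 0.0163; DESeq2 adjusted p = 0.0302). Without the first WT library it was 0.26 and did not pass (adjusted p = 0.0803). Cd1d2, the near copy whose coding bases are printed with those of Cd1d1, had 9 to 20 counts in every library and no difference that passed the test (log2 fold change -0.31, SE 0.52, adjusted p = 0.797), so reads given to the copy were few, although reads from stretches without a difference cannot be assigned to either gene. Cd1d1 lies on chromosome 3 at 86995834 to 86999441 on the minus strand.

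S1pr3 encodes a receptor for the lipid sphingosine 1-phosphate and is, with S1pr1, a receptor that holds marginal zone B cells in place. It had 274 and 329 counts in WT against 189 and 227 in Hnrnpf bKO, which is 16.8 and 17.3 CPM against 12.1 and 12.7 CPM. Both Hnrnpf bKO libraries were lower, and the libraries within a group lay closer together than the groups. S1pr3 fell to 72.7% of WT, with a log2 fold change of -0.46 (SE 0.12, 95% interval -0.73 to -0.20, adjusted p = 0.0393). Its adjusted p was the largest of the 4 calls. DESeq2 gave an adjusted p of 0.235, and edgeR gave 0.0682 to 0.151 when any 1 of the 4 libraries was left out. S1pr3 lies on chromosome 13 at 51408639 to 51422797 on the plus strand, and its printed promoter window holds the single TGGGAA after the start site.

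Cd9, a tetraspanin of the cell surface, had 96 and 136 counts in WT against 108 and 125 in Hnrnpf bKO. The change was, on the log2 scale, 0.09 (SE 0.19, 95% interval -0.33 to 0.50, adjusted p = 0.852), and the Hnrnpf bKO libraries lay between the WT libraries in CPM. At this depth the interval runs from 20.3% lower to 41.5% higher, so a change of the size seen for Cd1d1 was not detectable. Cd9 had no call when a library was left out, and its sign changed. The antisense gene Gm28809, inside Cd9, had 5 to 16 counts.

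Myof, which encodes the ferlin family membrane protein myoferlin, had 491 and 464 counts in WT against 401 and 396 in Hnrnpf bKO. The libraries overlapped at 30.03 and 24.4 CPM in WT and 25.6 and 22.1 CPM in Hnrnpf bKO, and the log2 fold change was -0.19 (SE 0.12, 95% interval -0.44 to 0.07, adjusted p = 0.410). Plxnd1, a plexin receptor for semaphorins, had 183 and 317 counts in WT against 212 and 266 in Hnrnpf bKO. Its WT libraries, at 11.2 and 16.7 CPM, enclosed both Hnrnpf bKO libraries, and the log2 fold change was 0.02 (SE 0.17, 95% interval -0.34 to 0.39, adjusted p = 0.967). The Plxnd1 value was -0.23 without the first WT library and 0.35 without the second, so the WT libraries set its sign.

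Levels of the 10 genes can be compared with each other per exonic length, in the FPKM values of the deposited table. Notch2 was the most abundant, with a mean of 88.5 FPKM over the 4 libraries and above 96.6% of the tested genes. Dtx1 followed at 57.6 FPKM, then Cd1d1 at 27.1, Maml1 at 15.0 and Hes1 at 10.5 FPKM. No neighbors in this order down to S1pr3, at 3.29 FPKM, overlapped over the 4 libraries. S1pr3 and Cd9, both at 3.29 FPKM, overlapped, as did Cd9 and Rbpj, at 2.63 FPKM, and Myof and Plxnd1, at 2.03 and 1.93 FPKM, so these neighbors were not separated beyond their spread. The FPKM of the receptor was far above that of its DNA-binding partner Rbpj, whose WT level was 2.43 FPKM in both libraries. These values divide by exonic gene size, 12750 bases over 12 annotated transcripts for Rbpj and 10782 over 2 for Notch2. Reads shared with the pseudogene Rbpj-ps3 may also be missing from Rbpj. How far either lowers the Rbpj value was not tested, so the values do not give a ratio of molecules. The 4 marginal zone genes other than Cd1d1 were at the low end of the order, between 1.93 and 3.29 FPKM on average.

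**Figure D3:**
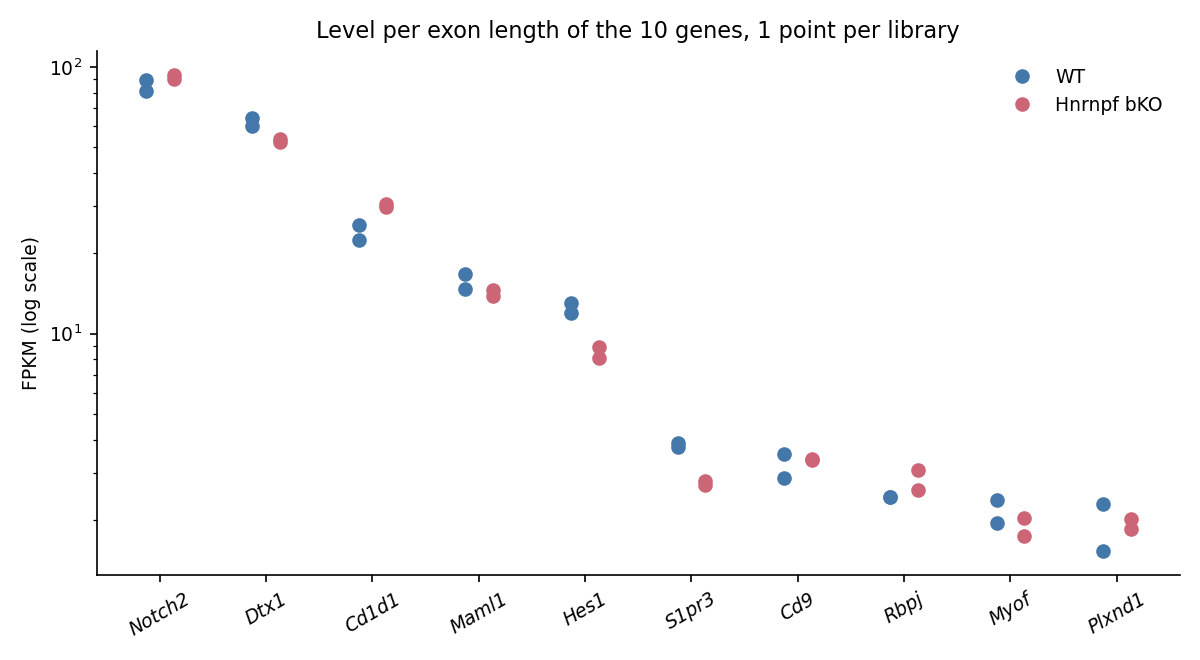
Level of the 10 genes per exonic length in FPKM on a log axis, with 1 point per library, WT at the left and Hnrnpf bKO at the right of each position, ordered by mean level. Notch2, at 81.1 to 93.6 FPKM, lies highest, and Myof and Plxnd1, at 1.53 to 2.38 FPKM, lie lowest.

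In the authors' splicing table, which lists 1556 events in 1173 genes, none of the 10 genes had an event. Of the 9877 genes whose mean reached 100 counts, to which all 10 belong, 10.6% were listed with an event. The genes of the pathway that were listed are other ones. Of the nuclear factors, the corepressor genes Ncor1 (2 skipped exons) and Tle3 (3 alternative 5′ splice sites) and the acetyltransferase genes Kat2a and Kat2b (1 event each) were listed. Of the Notch regulators, Fbxw7, which encodes the ubiquitin ligase subunit that marks the Notch intracellular domain for decay, had 2 skipped exons and Aak1, an adaptor kinase, had 1. Hes6, from the list of Notch targets and HES family members, had 1 retained intron. Of the marginal zone, fate and follicular genes, Tcf4, Ikzf1 and Bcl6 had 1 event each and Fcer2a had 5. The table holds events the authors called significant, so absence from it does not show that splicing was the same.

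The other genes of the pathway were described by lists. Of 70 further Notch pathway genes, 59 were tested, and 5 were higher and 3 lower in Hnrnpf bKO, which is 13.6% of those tested. The share was 6.97% over all tested genes and 8.94% among genes whose mean reached 100 counts. Because the lists were chosen with earlier results of these data known, the shares are counts and not a test of enrichment. The median log2 fold change of the 59 Notch genes was -0.00, as over all tested genes. Among 8 receptor and ligand genes, 4 had enough reads and none passed with edgeR, none having an unadjusted p under 0.05, and DESeq2 called none either. Notch1, the other Notch receptor expressed at some depth, had a log2 fold change of 0.09 (SE 0.10, adjusted p = 0.640), and Dll1 had one of -0.04 (SE 0.19).

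Of 15 tested genes for cleavage and glycosylation of the receptor, 1 rose and 2 fell. Ncstn, which encodes the gamma-secretase subunit nicastrin, had 2068 and 2519 counts in WT against 2552 and 2794 in Hnrnpf bKO and rose by 0.30 on the log2 scale (SE 0.06, adjusted p = 0.00617). Psen2, which encodes the catalytic presenilin 2 of the same complex, had 1923 and 2270 counts in WT against 1566 and 1843 in Hnrnpf bKO and fell by 0.22 (SE 0.06, adjusted p = 0.0313). Taok3, a kinase known for bringing ADAM10 to the surface of marginal zone precursors, had 2238 and 2462 counts in WT against 1740 and 2056 in Hnrnpf bKO and fell by 0.24 (SE 0.06, adjusted p = 0.0255). Leaving out the first WT or the first Hnrnpf bKO library ended the calls of Psen2 and Taok3, leaving out the second WT library also ended that of Psen2, and the highest adjusted p was 0.160 for Psen2 and 0.155 for Taok3. DESeq2 called neither (adjusted p = 0.112 for Psen2 and 0.0703 for Taok3). The protease genes themselves, Adam10 and Adam17, had log2 fold changes of -0.05 and -0.00 (SE 0.06 for both, adjusted p = 0.674 and 0.994). The glycosyltransferase genes Lfng and Mfng, whose products tune Notch binding to its ligands, had log2 fold changes of 0.04 and 0.06 (SE 0.06 for both).

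Of 19 nuclear factors, 1 passed the test. Kat2a, a histone acetyltransferase, had 1546 and 1800 counts in WT against 1795 and 2247 in Hnrnpf bKO and rose by 0.34 on the log2 scale (SE 0.06, adjusted p = 0.00539). The coactivator Ep300 had a log2 fold change of -0.10 (SE 0.08, adjusted p = 0.545), and the corepressors Ncor1 and Tle3 had log2 fold changes of -0.13 and -0.16 (SE 0.05 for both, adjusted p = 0.161 and 0.0931). Of 14 regulators, 2 rose. Neurl3, a ubiquitin ligase of the neuralized family, had 5972 and 6992 counts in WT against 7717 and 9361 in Hnrnpf bKO and rose by 0.47 (SE 0.05, adjusted p = 1.27e-04). Dtx3, a Deltex family ligase, had 505 and 803 counts in WT against 924 and 1065 in Hnrnpf bKO and rose by 0.69 (SE 0.11, adjusted p = 0.00306), the opposite direction to Dtx1. Neither of these calls was lost when a library was left out.

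A further list of 14 genes holds Notch targets and HES family members, and 8 had enough reads, 1 of which was higher and 1 lower. Hes6 is in it as a family member, and whether Notch induces it was not tested. Hes6, a family member known for opposing HES1, had 924 and 1052 counts in WT against 697 and 771 in Hnrnpf bKO and fell by 0.35 on the log2 scale (SE 0.08, adjusted p = 0.0134), although not without the second Hnrnpf bKO library (adjusted p = 0.0676). Myc, a growth regulator that has many inputs besides Notch, had 1500 and 1992 counts in WT against 1966 and 2140 in Hnrnpf bKO and rose by 0.32 (SE 0.07, adjusted p = 0.0146), a call lost without the first WT or the first Hnrnpf bKO library (highest adjusted p = 0.0956). Nrarp, a feedback inhibitor of the complex, had a log2 fold change of -0.58 with an SE of 0.31 (adjusted p = 0.327), and Hes5 had one of -0.13 (SE 0.21, adjusted p = 0.781), so at these levels changes like that of Hes1 were not detectable.

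Of 53 further marginal zone, fate and follicular genes, 52 were tested, and 4 were higher and 7 lower, or 21.2% of those tested. Over all tested genes the share was 6.97%, and among genes whose mean reached 100 counts it was 8.94%. These lists too were chosen with earlier results known. The median log2 fold change of the 52 genes was -0.04. Il9r, a cytokine receptor gene, had 2670 and 2899 counts in WT against 5022 and 6164 in Hnrnpf bKO and was 2.11-fold higher (log2 fold change 1.07, SE 0.06, adjusted p = 2.87e-07), the 1 called gene of the lists past 2-fold. The other 4 called marginal zone surface genes were lower, like S1pr3 and unlike Cd1d1. Cr2 fell by 0.47 (SE 0.07, adjusted p = 0.00140), and CD21, its product, was a gate marker. Cd36, a scavenger receptor, fell by 0.47 (SE 0.11, adjusted p = 0.0265), S1pr1, the second sphingosine 1-phosphate receptor, by 0.29 (SE 0.06, adjusted p = 0.0156), and Itgal, the alpha chain of the integrin LFA-1, by 0.29 (SE 0.05, adjusted p = 0.00373), all on the log2 scale. The call of Cd36 was lost without the second WT library (adjusted p = 0.253) and with DESeq2 (adjusted p = 0.0940), and that of S1pr1 without the second WT or the first Hnrnpf bKO library (highest adjusted p = 0.120). Cnr2, Cd24a, Cd38 and Tlr9, the deepest of the other surface genes, had log2 fold changes from -0.18 to -0.03 and did not pass.

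Of 21 tested genes for receptors and transcription factors of the marginal zone or follicular choice, 3 were lower and none higher. Tnfrsf13c, which encodes the BAFF receptor, had 6192 and 7386 counts in WT against 4740 and 5200 in Hnrnpf bKO and fell by 0.37 on the log2 scale (SE 0.05, adjusted p = 7.13e-04). Ebf1, a B lineage transcription factor, fell by 0.24 (SE 0.06, adjusted p = 0.0421), but not without the first WT or the first Hnrnpf bKO library (highest adjusted p = 0.251) or with DESeq2 (adjusted p = 0.0532). Of 12 follicular genes, 3 rose and S1pr1, which is in both lists, fell. Ighd, the IgD heavy chain, rose by 0.28 on the log2 scale (SE 0.05, adjusted p = 0.00451). Fcer2a rose by 0.22 (SE 0.05, adjusted p = 0.0180), a call lost without the second Hnrnpf bKO library (adjusted p = 0.222), and CD23 was a gate marker as well.

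**Figure D4:**
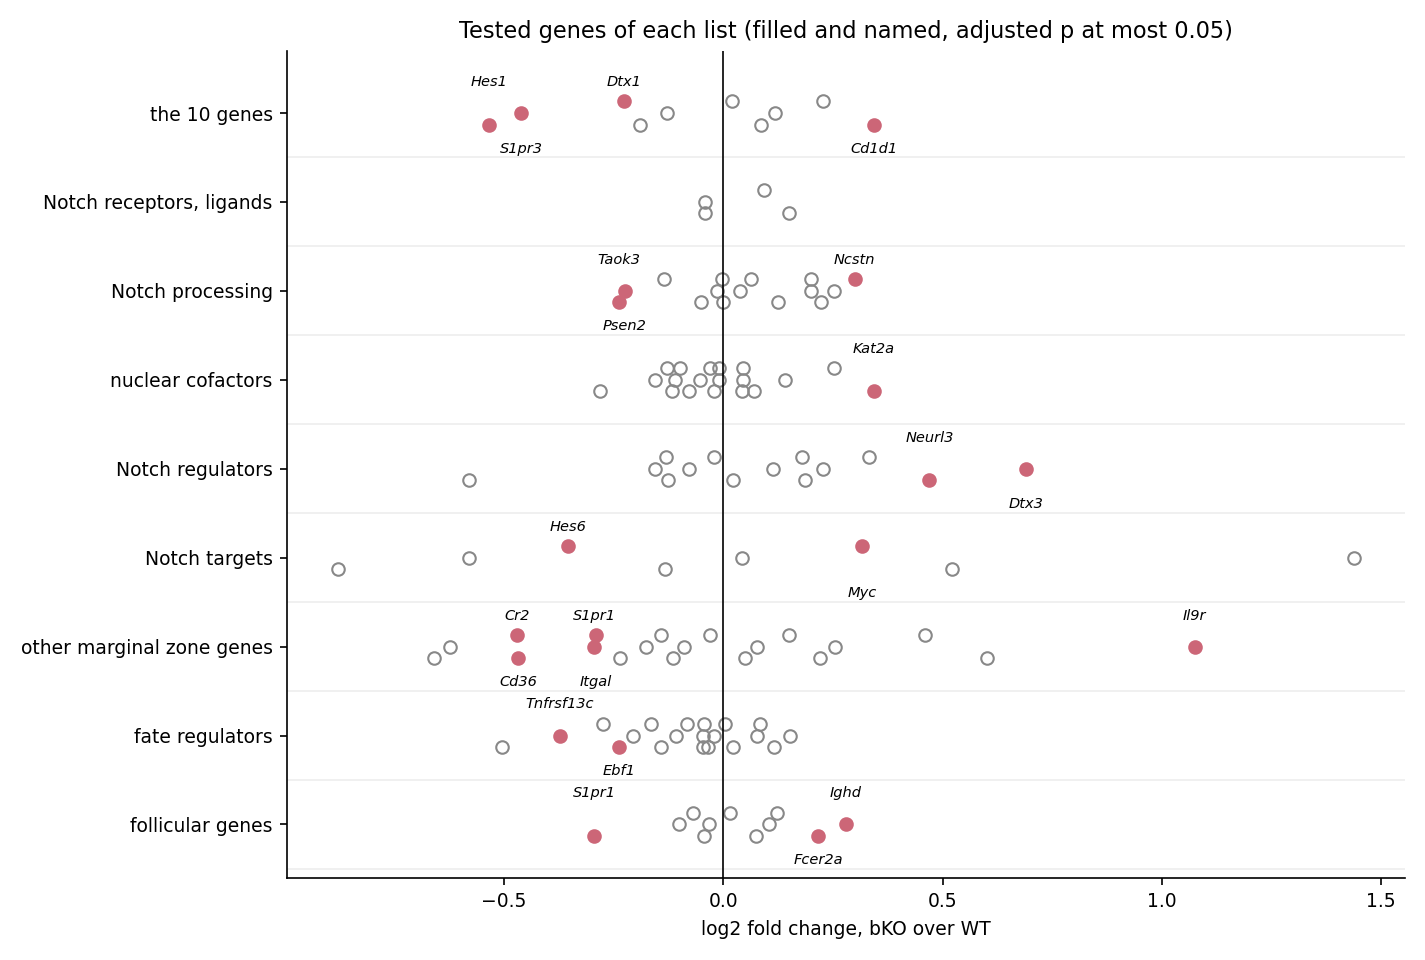
Log2 fold change, Hnrnpf bKO over WT, of tested genes among the 10 and in the lists of Notch pathway, marginal zone, fate and follicular genes, with 1 point per gene and filled, named points for an adjusted p of at most 0.05; called genes that are not reported here are not drawn. Il9r, at 1.07, lies furthest to the right of the called genes shown, and Hes1, at -0.53, furthest to the left.

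Several of the 10 genes are also made by other cells of the spleen, and markers of such cells were summed in each library. The 8 endothelial markers summed to 325 to 329 CPM in WT and 267 to 298 CPM in Hnrnpf bKO, but 6 of them had under 10 counts in every library, Emcn was at 0, and Pecam1, which B cells also express, made up most of the sum. Without Pecam1 the other 7 summed to 2.02 to 2.49 CPM in WT and 1.27 to 2.10 CPM in Hnrnpf bKO. The 6 dendritic cell markers summed to 13.7 to 17.2 CPM in WT and 23.3 to 29.3 CPM in Hnrnpf bKO, but 1 of the 4 tested markers, Flt3, was higher (log2 fold change 1.12) and carried this difference. Without Flt3 the other 5 summed to 5.13 to 6.399 CPM in WT and 5.20 to 5.61 CPM in Hnrnpf bKO, with Itgax at a log2 fold change of -0.57 (adjusted p = 0.371) and Xcr1 at 8 counts or fewer in every library. The 6 neutrophil markers summed to 5.93 to 8.78 CPM in WT and 14.7 to 25.3 CPM in Hnrnpf bKO, with S100a8 and S100a9 higher. The macrophage list gave 20.6 to 24.9 CPM in WT and 17.3 to 21.1 CPM in Hnrnpf bKO. The platelet list gave 45.7 to 49.8 and 40.6 to 48.9 CPM, and the T cell list 82.3 to 104 and 69.8 to 82.3 CPM. Most of the platelet sum was Itgb3, and 4 of the 6 platelet markers had under 10 counts in every library. With Itgb3 left out, the other 5 summed to 3.55 to 3.86 CPM in WT and 2.16 to 2.80 CPM in Hnrnpf bKO. With Lck left out, the other 7 T cell markers summed to 30.07 to 44.48 CPM in WT and 25.03 to 34.97 CPM in Hnrnpf bKO. The part of these cells in the values of S1pr3 and Cd1d1 was not tested. Cd93, which the gate selects against and which marks transitional B cells, was higher in Hnrnpf bKO as given above, and its part in the values was likewise not tested.

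Of the 10 genes, 8 kept the sign of their log2 fold change under every tool, filter and left-out library that was tried. These were the called Hes1, Dtx1, Cd1d1 and S1pr3, and also Notch2, Rbpj, Maml1 and Myof, which did not pass. For all of these but Maml1 and Myof the groups did not overlap, so leaving out a library could hardly change the sign. The other tools and filters used the same libraries. The share of all tested genes that kept their sign was not counted, so no contrast is drawn from this count. Without the first WT library all 4 calls were lost, with adjusted p-values of 0.0501 for Hes1, 0.152 for Dtx1, 0.0803 for Cd1d1 and 0.0780 for S1pr3. With limma on log2 FPKM none of the 10 genes passed at either pseudocount, while 45 and 41 of all genes did. At both, 4 of the 10 had an unadjusted p under 0.05, and the share of all genes under that value was not counted. In the plot of all settings, the points of Notch2 stay above 0, whereas those of Cd9 and Plxnd1 lie on both sides.

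**Figure D5:**
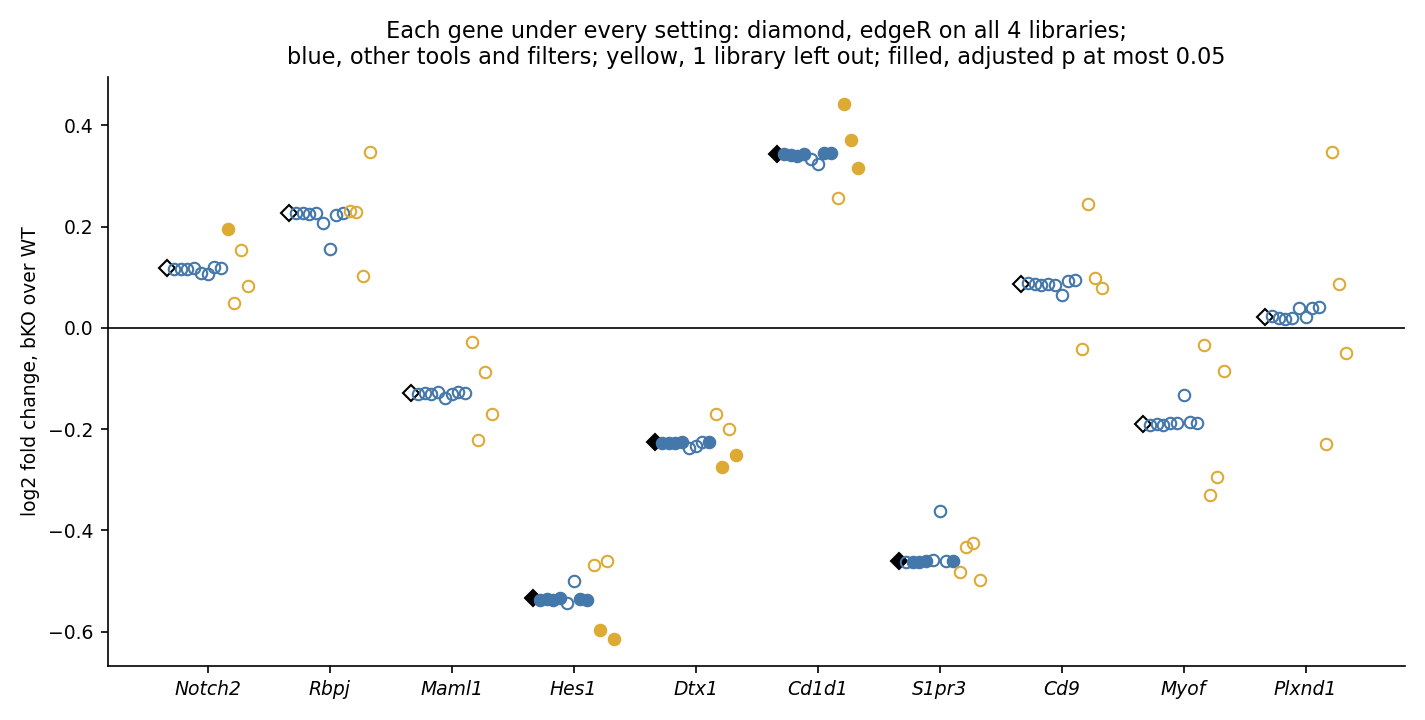
Log2 fold change, Hnrnpf bKO over WT, of each of the 10 genes under every setting, with a diamond for edgeR on all 4 libraries, blue points for other tools and filters, yellow points for 1 library left out, and filled symbols for an adjusted p of at most 0.05. Hes1 stays between -0.61 and -0.46 and Cd1d1 between 0.26 and 0.44, while the points of Plxnd1 run from -0.23 to 0.35.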

How the data were processed

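RNA of sorted FOB cells from 2 WT and 2 Hnrnpf bKO samples was analysed, with the genotype and replicate number of each label. Per the labels and methods, the authors trimmed reads with Cutadapt (1.9.1), aligned them to GRCm38 with HISAT2 (2.0.1) and counted reads per gene with HTSeq (0.6.1); the strand setting is not given in the sources used here. The deposited counts are whole numbers without normalization. The authors derived the deposited FPKM values from the counts, exonic gene size and library total, and 100% of them could be recomputed within rounding. The authors' splicing table, made with rMATS, holds their own comparison: its deposited FDR, an adjusted p-value, and its inclusion levels and differences were not used, and only the gene and the event type were read.

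Counts were tested with edgeR 4.0.16 in R 4.3.3 (filterByExpr, TMM, quasi-likelihood F test, two-sided, Benjamini-Hochberg adjustment over 14123 genes, calls at adjusted p of 0.05 or less). The study's methods name DESeq2, and DESeq2 1.42.0 was an alternative. Further alternatives were RLE size factors, no filter, at least 10 counts in every library, the replicate block, limma-trend (3.58.1) on log2 FPKM with pseudocounts of 0.1 and 1 where the mean FPKM reached 0.5, a 2-fold minimum and each library left out. The crossed block was added after seeing the data. CPM values are counts scaled by TMM library size. A permutation test of 2 against 2 cannot give a two-sided exact p below 0.333, so none was used. Replicates differed by more than counting noise (chi-square per degree of freedom 4.38 in WT and 3.97 in Hnrnpf bKO), and the biological coefficient of variation was 5.90%. The median standard error was 0.0847 among genes whose mean reached 100 counts. The test was checked on simulated counts in which all genes had the same dispersion, unlike the data. It recovered 6% of changes of 0.25 on the log2 scale, 64% of 0.5, 86% of 1 and 96% of 2, with 4 false calls in all.

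The 10 genes and the lists were chosen with earlier results of these data known. Named genes were all 10, Hnrnpf and the gate genes, the called genes of each list (up to 20, by size of change, with a mean of at least 10 counts), up to 4 of the deepest others per list, and near-identical copies found with blastn 2.17.0 at 90% identity or more over at least 150 bases. Some genes of the lists are counted but not reported by name here.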

Additional observations from a re-analysis of the deposited data

How the results depend on the processing

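With 2 libraries per group and a median standard error of 0.0847 for well-covered genes, small changes may not have been detectable. DESeq2 called 617 genes in place of 985 and the limma settings 45 and 41, and 127 genes passed with a 2-fold minimum. Of the 10 genes, DESeq2 called 3, limma 0 and 0 and the 2-fold minimum 0, and leaving out 1 library gave 1 to 3. Without the first WT library the 1 gene called was Notch2, and 0 of the 4 calls remained. Of the further Notch pathway genes, limma called 1 and 0 and the 2-fold minimum 0, in place of 8. Of the marginal zone, fate and follicular genes, limma called 2 and 2 and the 2-fold minimum 1, in place of 11. Counts with 1 library left out were 679 to 861 for all genes, 6 to 10 for the Notch genes and 9 to 13 for the marginal zone, fate and follicular genes.

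The log2 fold changes no longer passed with limma, at -0.24 and -0.23 for Dtx1, -0.54 and -0.50 for Hes1, 0.33 and 0.32 for Cd1d1 and -0.46 and -0.36 for S1pr3 (pseudocounts of 0.1 and 1). S1pr3 was -0.46 and not called with DESeq2. Leaving out 1 library gave 0.049 to 0.19 for Notch2, -0.28 to -0.17 for Dtx1, -0.61 to -0.46 for Hes1, 0.26 to 0.44 for Cd1d1, -0.50 to -0.42 for S1pr3, -0.043 to 0.24 for Cd9 and -0.23 to 0.35 for Plxnd1, the last pair changing sign. The cause was not tested.

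The sources used here do not say whether libraries with the same replicate number were paired. Over 13017 genes the difference between replicates 1 and 2 in WT correlated with that in Hnrnpf bKO at -0.127. With the replicate block 612 genes and 2 of the 10 were called, with Dtx1 at -0.23 and S1pr3 at -0.46 not called. The crossed pairing, added after seeing the data, called 1367 genes.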
